A study of Mus musculus with 6 samples.

Results

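The hub anchors of chromosome 1 are 428 bins of 5 kb, each of which took part in at least 50 listed chromatin contacts in P19 cells at 0 h, 6 h or 48 h of treatment with all-trans retinoic acid (ATRA). They are 428 of the 29641 bins of mouse chromosome 1 that occur in the deposited list of significant contacts, and of 376858 listed bins in the whole genome. A listed pair is a row of that list, that is, 2 bins of one chromosome with a read count above 0 at the time point. The members were selected on the number of listed pairs, so those numbers are given as a description, with no test. Just inside the threshold, 6 bins had 50 pairs at their highest time point and 6 had 51. Just outside it, 12 bins had 49 and 9 had 48. The same rule found 98 bins on chromosome 6, 164 on the other 18 chromosomes together and 690 in all.

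In Hi-C, nuclei are crosslinked, the DNA is cut and religated, and the ligation junctions are sequenced, so that a pair of loci close to each other in the nucleus is read more often. Contact frequency falls steeply with distance along the chromosome, and significant contacts are those read more often than their distance predicts. A bin with many such contacts is called a hub or anchor. Promoters, enhancers and sites of the architectural proteins CTCF and cohesin are known to form anchors, and a bin can also be listed often where its DNA is recovered more readily than that of its neighbours.

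P19 is a mouse embryonal carcinoma line that ATRA drives towards neural differentiation. Cells grown in monolayer on gelatine were left non-differentiated (T0) or held in ATRA at 1e-06 M for 6 h (T6) or 48 h (T48). Each time point has 2 Hi-C libraries, and the labels do not say whether they came from separate cultures, so the spread between them may be technical. The series title places the study in neuronal fate acquisition, and the comparison asks how contacts changed early in that course. Listed counts on chromosome 1 came to 3907505 and 2386409 at 0 h, 3161028 and 1869679 at 6 h, and 3097648 and 2287817 at 48 h in replicates 1 and 2. Replicate 1 was the deeper library at each time. A pair is listed per time point with counts in both libraries. The list therefore cannot be rebuilt from 1 library, and a 0 means that a pair was not listed.

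Most hub bins belonged to one of 5 groups by the times at which they reached 50 pairs. In 160 bins (37.4%) the threshold was reached at T0, T6 and T48, and in 127 (29.7%) at 0 h and T6 but not at 48 h. A further 56 bins reached it at 0 h alone, 43 at 6 h alone and 33 at 48 h alone. The remaining bins were 6 that reached it at 0 h and T48 and 3 at 6 h and T48. There were thus 349 hub bins at 0 h, 333 at 6 h and 202 at 48 h. This order turned on a stricter list, which keeps only pairs whose counts are at least 1.5 times the lowest listed count at their distance in both libraries: 69 of the 428 bins then reached 50 pairs at 0 h, 51 at 6 h and 77 at 48 h, while the median over all members was still lowest at 48 h (36, 32.5 and 10 pairs). Over all 428 bins the median number of listed pairs was 71 at 0 h, 66 at 6 h and 33.5 at 48 h.

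Few of the bins under the threshold at 48 h were close to it. At 48 h, 209 of the 226 bins under the threshold had 30 pairs or fewer and 17 had 31 to 49. At 0 h these counts were 65 and 14 of 79 bins under the threshold, and at 6 h 67 and 28 of 95. A larger share was thus close to it at those times. In the T0 and T6 group the median went from 72 and 69 pairs to 18 at 48 h. In the group of T48 alone it went from 13 and 13 to 75. The bins that stayed hubs had medians of 84, 80 and 89.

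**Figure D1:**
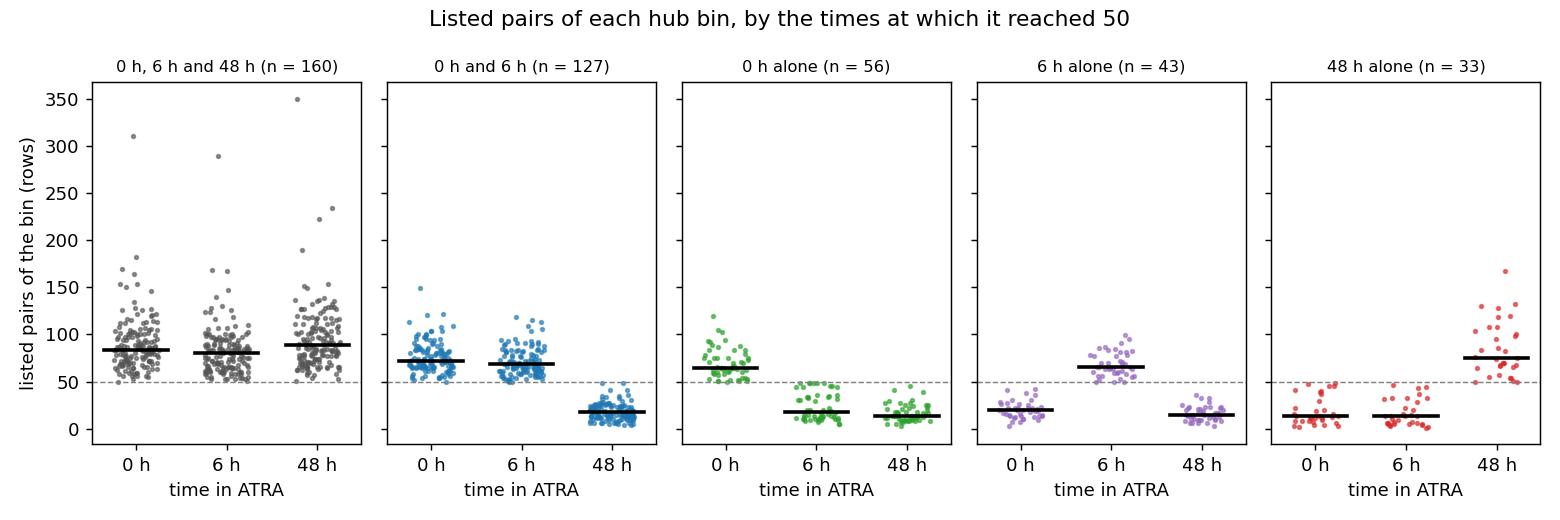
Number of listed pairs of each hub bin (vertical axis) at 0 h, 6 h and 48 h, in 5 panels by the time points at which the bin reached 50 pairs (dashed line). Each point is 1 bin and the black bars are medians. In the 127 bins that were hubs at 0 h and 6 h the median was 18 at 48 h.

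Since lists exist per time point only, a count level was computed for each bin in each library. It is the sum of a bin's counts over pairs of up to 20 kb listed at all 3 time points, divided by the sum expected from the median count, at the same distances and in the same library, of chromosome 1 pairs that touch no hub bin. A level of 1 is thus the typical bin. Of the 428 hub bins, 426 have a level. These short pairs are part of what the members were selected on, so the levels are a description too.

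Hub bins had about 2.5 times the short-range count of a typical bin, except in T48 replicate 1. The median levels were 2.48 and 2.45 at 0 h, 2.47 and 2.51 at 6 h, and 1.26 and 2.67 at 48 h in replicates 1 and 2. Levels fell into a low and a high cluster with few bins between them, and below 1.3 is called low and from 1.7 high. These limits were set after the levels were seen. In T48 replicate 1, 217 bins were low and 197 high, whereas in T48 replicate 2, 54 were low and 357 high. At 0 h 51 and 46 bins were low, and at 6 h 64 and 41.

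The groups by list differed in which libraries were high. In the 160 bins that were hubs throughout, median levels lay between 2.50 and 2.81 in all 6 libraries. In the 127 hubs of T0 and T6, they were 2.56 and 2.60 at 0 h, 2.64 and 2.62 at 6 h, and 0.976 and 2.64 at 48 h. T48 replicate 1 was thus at the level of a typical bin while T48 replicate 2 was at the level of T0. In the 33 hubs of T48 alone, the medians were 0.976 and 1.19 at 0 h, 1.03 and 1.06 at 6 h, and 2.74 and 2.74 at 48 h. Of these bins, 28 were high in both T48 libraries.

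The loss of hub status at 48 h went with T48 replicate 1. Of the 226 bins under 50 pairs at 48 h, 225 have a level. In 151 of them the level was low in replicate 1 and high in replicate 2. In 54 it was low in both libraries and in 4 it was high in both. In none was it high in replicate 1 and low in replicate 2. At 0 h the discordant bins were split almost evenly, with 21 low in replicate 1 only and 20 low in replicate 2 only, of 79 bins under the threshold. At 6 h they were 29 and 9 of 93. Why 1 library differed was not tested.

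With levels from pairs of up to 20 kb, a bin reached the threshold almost only where both libraries were high. Pairs are listed with counts in both libraries, so this follows in part from the listing and is a description. At 48 h the 193 bins high in both libraries had a median of 86 listed pairs. The 168 bins high in 1 library had a median of 19, and the 65 bins high in neither had 12. At 0 h the medians were 76, 22 and 11.5, and at 6 h 70, 20 and 10. One high library thus left a bin closer to the pair numbers of bins high in none than to those of bins high in both. With levels from pairs of 25 to 100 kb and the same limits, fewer hubs were high in both libraries, namely 135 of 308 at 0 h, 134 of 304 at 6 h and 104 of 183 at 48 h, and 146, 141 and 72 had at least 1 library between the limits.

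**Figure D2:**
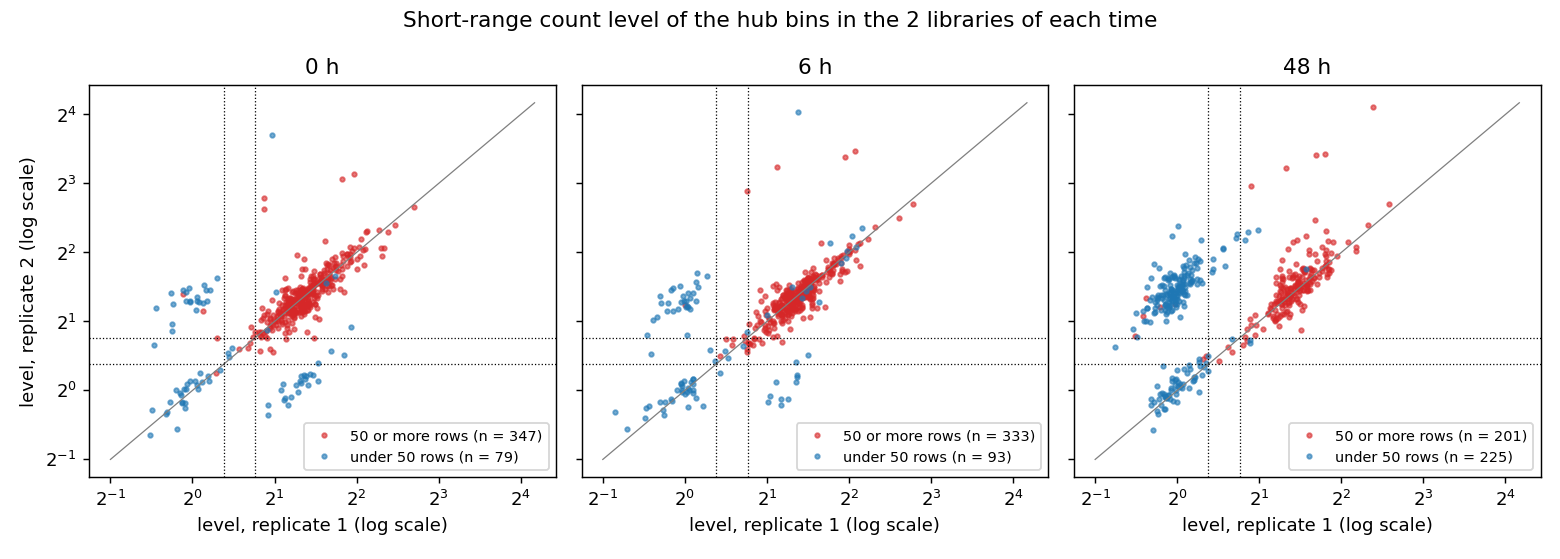
Count level of each hub bin in replicate 1 (horizontal axis) and replicate 2 (vertical axis), both on log scales, at 0 h, 6 h and 48 h, with bins of 50 or more listed pairs in red and others in blue. Dotted lines mark 1.3 and 1.7, and the grey line equal levels. At 48 h a cloud of 151 blue bins is low in replicate 1 and high in replicate 2.

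Changes that both libraries of both time points shared were fewer than changes of the lists. From T0 to T48, 182 bins with a level lost hub status. Only 33 of them were high in both T0 libraries and low in both T48 libraries, while 142 were still high in T48 replicate 2 and 4 in T48 replicate 1. Hub status was gained by 36 bins, of which 14 were low in both T0 libraries and high in both T48 libraries. From T0 to T6, 60 bins lost it and 46 gained it, and 13 and 8 of these did so in all 4 libraries. From T6 to T48, 170 lost it and 38 gained it, and 38 and 16 did so in all 4.

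The difference between the T48 libraries was not limited to bins selected as hubs. Among all 23673 chromosome 1 bins with a level, hubs included, 621 (2.62%) were below 1.3 in T48 replicate 1 and at 2 or more in T48 replicate 2. The share was 0.988% at 0 h and 1.02% at 6 h. On chromosome 6 it was 0.773% at 48 h, and on the other chromosomes between 0.101% and 0.305%. The 97 chromosome 6 hubs with a level had medians of 1.06 in T48 replicate 1 and 2.64 in T48 replicate 2.

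Bins beside the hubs that were not hubs themselves lay near the typical level. Beside the hubs, levels were computed without any pair that touches a hub bin, and neighbours that are hubs were left out. At 5 kb, 266 bins to the left and 270 to the right had such a level. Leaving out hubs takes away neighbours with many pairs, so the width of the rise was not tested. At 5 kb to the left the median levels were between 1.02 and 1.06 in the 6 libraries, and at 5 kb to the right between 1 and 1.03. They stayed between 0.974 and 1.09 as far as 50 kb on either side. The bins next to a hub that were not hubs themselves were therefore close to the typical bin of the chromosome.

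**Figure D3:**
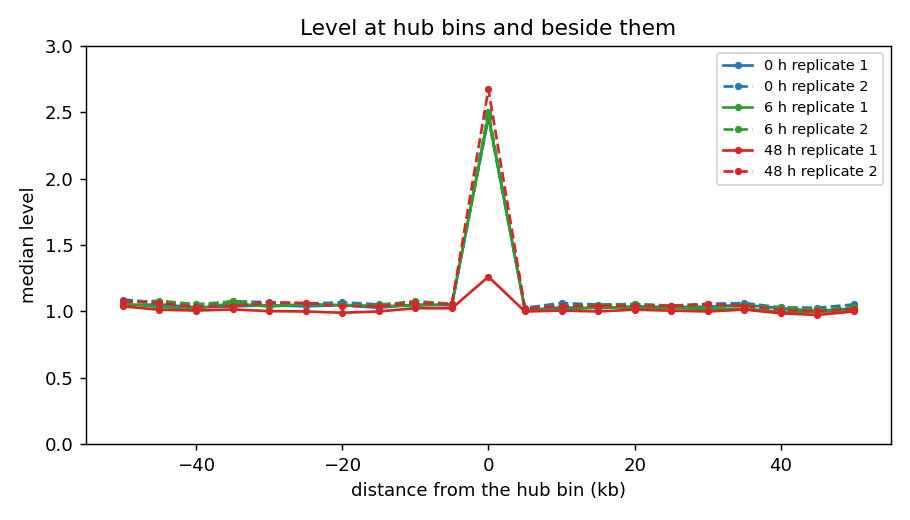
Median count level (vertical axis) of the 428 hub bins, at distance 0, and of the bins up to 50 kb to either side (horizontal axis, kb), with 1 line per library. Beside the hub, pairs that touch a hub and neighbours that are hubs are left out. The level at the hub is 2.45 to 2.67 in 5 libraries and 1.26 in replicate 1 at 48 h, and near 1 beside it.

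Counts of short pairs rose with the number of hub bins in a pair. For pairs of 5 to 10 kb at 0 h, the median count in replicate 1 was 62 where neither bin was a hub, 148 where 1 was and 256 where both were. In replicate 2 it was 34, 82.5 and 165.5. The ratios to pairs without a hub were 2.39 and 4.13 in replicate 1 and 2.43 and 4.87 in replicate 2. At 48 h they were 1.52 and 2.77 in replicate 1 and 2.69 and 4.97 in replicate 2. Among listed pairs the ratio was smaller at long range. Medians there lay close to the lowest listed count, so these ratios do not tell how the rise changed with distance. In T0 replicate 1 the lowest count above 200 kb and up to 500 kb was 4, against medians of 6 without a hub and 8 with 1. At 5 to 10 kb the lowest count without a hub was 29, against a median of 62. Above 200 kb and up to 500 kb the ratio for pairs with 1 hub was between 1.17 and 1.5 in the 6 libraries. Above 1000 kb it was 1 in 4 of the libraries and 1.33 in the other two, and in T6 replicate 2 the median count was 4 with no hub, with 1 and with 2. The lowest listed count was the same for pairs with and without a hub at 98 to 100 of 100 distances in each library. Pairs with a hub thus faced the same lowest count at a given distance. No column gives the coverage of a bin, so more contact and higher coverage cannot be told apart here.

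The partners of the hubs filled most of the nearby sequence. The groups compared here were split on their number of listed pairs, so a gap between them was set by the selection. The shares are a description. At 0 h, bins that were hubs then were listed with 83.2% of the listed bins lying 50 kb away, against 6.63% for bins that were never hubs. At 100 kb the shares were 69.2% and 5.81%, and near 500 kb 14.2% and 0.962%. At 48 h they were 83.3% and 4.65% at 50 kb, and 18.3% and 0.960% near 500 kb. Members under 50 pairs at 48 h stood between the groups at 50 kb, with 15.1%.

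**Figure D4:**
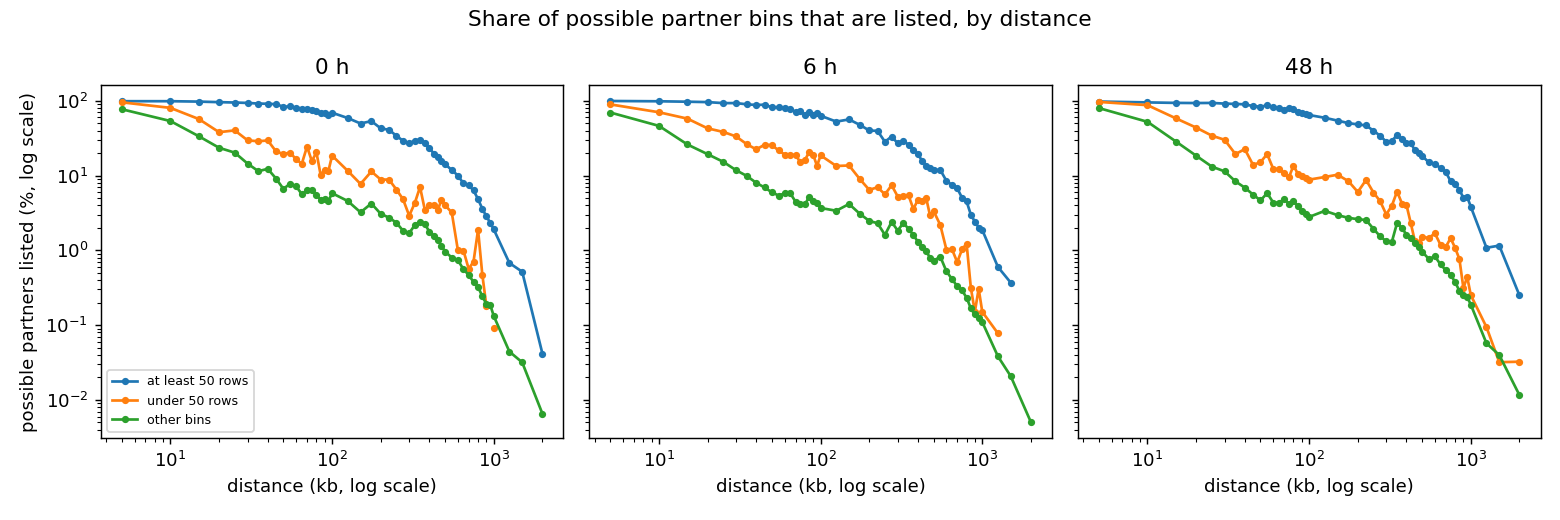
Share of possible partner bins that are listed (vertical axis, %, log scale) against distance (horizontal axis, kb, log scale) at 0 h, 6 h and 48 h, for hub bins of 50 or more pairs at that time, hub bins under 50 and all other listed bins of chromosome 1. Shares of 0 are not drawn. At 50 kb and 0 h the hubs reach 83.2% and the other bins 6.63%. The groups are split on pair numbers, so a gap between them follows from the selection.

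Pairs that touch a hub were common in the chromosome 1 list. They numbered 29024 at 0 h (20.2%), 26452 at 6 h (21.8%) and 22012 at 48 h (17.8%). Their median span was 175 kb, 165 kb and 195 kb at T0, T6 and T48, against 55 kb at each time for pairs without a hub. Spans of 500 kb or more formed 15%, 13.9% and 19.6% of the hub pairs, and 9.19%, 8.67% and 12.5% of the others. Hubs were selected on a high number of pairs, and the number of nearby partner bins is limited. Longer spans of hub pairs therefore follow in part from the selection, and these contrasts of span are a description. As a share of read counts, hub pairs held 18.5% and 18.7% at 0 h, 19.7% and 20.5% at 6 h, and 14.6% and 18.2% at 48 h. The means were 18.6% ± 0.169 (SD, n = 2), 20.1% ± 0.547 (SD, n = 2) and 16.4% ± 2.60 (SD, n = 2). The low value at 48 h was that of replicate 1, and replicate 2 lay near the T0 libraries. With 2 libraries against 2, an exact two-sided permutation test cannot give a p below 0.333, so no test was made.

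Hub pairs recurred between time points, which is given as a description since the same lists selected the hubs. Over the 3 lists there were 42754 different hub pairs, of which 27.0% were listed at all 3 times, against 17.9% of 203172 other pairs. Between 100 and 500 kb the shares were 22.0% and 7.72%. Of pairs that join 2 hubs at that distance, 46.2% were listed at all 3 times.

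Hubs were widely listed with each other, again as a description. All 236 possible hub pairs of up to 100 kb were listed at one time at least. Above 100 kb and up to 500 kb, 572 of 671 were listed (85.2%), against 41.6% of the possible pairs of a hub with another bin. Above 500 kb and up to 1000 kb these shares were 37.2% and 9.89%. In all, 1189 listed pairs joined 2 hubs. The hubs drew on 16454 other bins as partners, and a partner was listed with a median of 2 hubs and at most 13.

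Hubs lay in groups with long stretches between them. The median distance to the next hub was 165 kb (quartiles 50 and 412.5 kb), and 164 gaps (38.4%) were of 100 kb or less. In 13 cases hubs were adjacent bins. Joining hubs up to 25 kb apart gave 359 regions, of which 305 held a single bin, 43 a pair and 11 at least 3. The largest held 5 hub bins, at chr1:179600001-179635000 (mm9, as all coordinates here). At the other end, 42 gaps were 1 Mb or longer. The longest ran over 11.98 Mb at chr1:95240001-107220000, where 1766 bins were listed with 8068 pairs and none was a hub. The next ran over 10.2 Mb at chr1:107940001-118140000. Across 20 windows of 10 Mb, the number of hubs went with the number of listed pairs per bin, counted over pairs that touch no hub (Spearman's rho 0.698, given as a description).

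Contacts of most hubs spread to both sides. At its highest time point a hub had a median span of 170 kb (median over bins; 75 to 2215 kb) and a longest contact of 945 kb (median). In 313 of 428 bins, between 25% and 75% of the pairs went to the left. In 45 the share was lower and in 70 higher. Hubs of T48 alone had a median span of 242.5 kb, against 195 kb for hubs of all 3 times and 126.25 kb for those of T0 alone. These spans come from lists of different times. Pairs without a hub also reached 500 kb more often at 48 h (12.5%) than at 0 h (9.19%).

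The bin with the most contacts was chr1:26740001-26745000. It had 311 listed pairs at 0 h, 289 at 6 h and 350 at 48 h. Its level was 4.03 and 3.74 at 0 h, 4.24 and 3.72 at 6 h, and 4.53 and 4.21 at 48 h, so that all 6 libraries were high. At 48 h, 179 partners lay to its left and 171 to its right, with a median span of 592.5 kb. To its right, chr1:26745001-33550000 held no hub over 6.805 Mb.

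Other large hubs were one-sided. The bin chr1:42770001-42775000 had 164, 167 and 234 listed pairs at T0, T6 and T48. At 48 h, 204 of its partners lay to the left and 30 to the right. The bin chr1:57480001-57485000 had 150, 140 and 137 listed pairs, and at 0 h 6 partners lay to the left and 144 to the right. The bin chr1:179630001-179635000 had 182, 168 and 190 listed pairs, with 161 to the left and 29 to the right at 48 h. All 3 stayed hubs throughout.

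The longest hub pairs listed at all times joined 2 clusters 2.2 Mb apart. They run between bins from chr1:85245001-85250000 to chr1:85275001-85280000 and bins chr1:87485001-87490000 and chr1:87490001-87495000. For the bins starting at 85270001 and 87490001, 2220 kb apart, the counts were 621 and 2057 at 0 h, 654 and 2290 at 6 h, and 496 and 2473 at 48 h. Replicate 2, the shallower library at each time, had the higher count each time. Between chr1:85270001-85275000 and chr1:87485001-87490000 the counts were 1299 and 1355, 1377 and 1468, and 997 and 1711. At more than 1000 kb, other pairs without a hub had a median count of 4 or 3 in every library. The level of chr1:87485001-87490000 was 3.54 and 8.37 at 0 h, 3.88 and 10.4 at 6 h, and 3.22 and 10.7 at 48 h. Replicates thus differed more than the time points at this locus, and why was not tested.

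The gains with the largest ratio of pair numbers of T48 over T0 were high in both T48 libraries. The ratio was taken on the log2 scale after scaling to the length of each list, with 0.5 added. It favours bins with few pairs at the start, and other bins gained more pairs by plain difference. The bin chr1:67840001-67845000 had 2 listed pairs at 0 h, 2 at 6 h and 118 at 48 h. Its level was 0.700 and 0.636 at 0 h, 0.611 and 0.676 at 6 h, and 1.93 and 1.74 at 48 h, resting on 1 short pair. The bin chr1:61325001-61330000 had 3, 5 and 98 listed pairs. Its level was 0.806 and 0.807 at 0 h, 2.01 and 0.892 at 6 h, and 2.56 and 2.52 at 48 h, so that T6 replicate 1 was already high. The bin chr1:190275001-190280000 had 8, 9 and 120 listed pairs. Its level was 1.04 and 2.57 at 0 h, 1.03 and 2.65 at 6 h, and 2.87 and 3.40 at 48 h. Here replicate 2 was high at all times and replicate 1 at 48 h alone.

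Hubs of T48 alone were also listed with each other at 48 h. There were 16 pairs that joined 2 such hubs and were listed at 48 h alone. The bins chr1:62035001-62040000 and chr1:62185001-62190000, 150 kb apart, had counts of 35 and 21. The bins chr1:81215001-81220000 and chr1:81280001-81285000, 65 kb apart, had 17 and 29. Counts of the other pairs were lower in sum, down to 3 and 3 for chr1:81280001-81285000 and chr1:82475001-82480000, 1195 kb apart. These hubs were selected on their listings at 48 h, so this is a description.

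The losses with the largest ratio of pair numbers, ranked in the same way, were low in both T48 libraries, or just above the limit in 1 bin. The bin chr1:4125001-4130000 had 120 listed pairs at 0 h, 33 at 6 h and 5 at 48 h. Its level was 2.57 and 2.22 at 0 h, 1.03 and 2.31 at 6 h, and 1.15 and 1.11 at 48 h, so that at 6 h only replicate 1 was low. The bin chr1:11410001-11415000 had 64, 65 and 4 listed pairs. Its level was 2.18 and 2.58 at 0 h, 2.18 and 2.75 at 6 h, and 0.891 and 0.833 at 48 h. The bin chr1:191830001-191835000 had 105, 11 and 7 listed pairs. Its level was 2.59 and 3.39 at 0 h, 1.07 and 1.12 at 6 h, and 1.27 and 1.32 at 48 h, so it was low in both libraries from T6 on, apart from a T48 replicate 2 value just above the limit.

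The 2 named hubs with the largest ratio of pair numbers of T6 over T0, ranked in the same way, were back near their T0 number at 48 h. Other bins gained more pairs by plain difference. The bin chr1:10510001-10515000 had 3 listed pairs at 0 h, 56 at 6 h and 3 at 48 h. Its level was 0.875 and 0.682 at 0 h, 2.39 and 2.16 at 6 h, and 0.817 and 0.674 at 48 h. The bin chr1:77550001-77555000 had 7, 72 and 8 listed pairs, with levels of 0.830 and 0.892, 2.27 and 2.10, and 0.932 and 0.953. In both, the T6 libraries were apart from the other 4. Neither passed the test between T6 and T0 that is given next (edgeR adjusted p = 0.234 and 0.130). The next 3 named gains were chr1:69890001-69895000, chr1:159945001-159950000 and chr1:118140001-118145000. Each had 1 high library at 0 h and a high T48 replicate 2. Of the 43 hubs of T6 alone, 8 were low in both T0 libraries. In 10 of them T0 replicate 1 was low and replicate 2 high, and in 19 the reverse.

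Counts of always-listed pairs, summed per bin over the whole genome, were compared between time points with edgeR's quasi-likelihood test and Benjamini-Hochberg adjustment over all 310746 tested bins. All 428 hubs were tested. The members were selected on listings of the same libraries, so nothing is read from how many of them were called. Between T6 and T0, 0 bins of the genome were called (0%), with 7684 bins and 32 hubs at an unadjusted p under 0.05. DESeq2 called 41 bins, 15 of them hubs, and edgeR with the replicate number as a block called 34, of which 14 were hubs, 8 higher and 6 lower. Between T48 and T0, 18 bins were called (0.00579%), and 11 of them were hubs, 7 higher and 4 lower at 48 h. Between T48 and T6, 13 were called (0.00418%), and 10 were hubs, 7 higher and 3 lower. The balance of directions turned in both alternatives. For T48 over T0, DESeq2 called 12 hubs higher and 29 lower, and edgeR with the replicate block 11 higher and 28 lower. For T48 over T6 these counts were 12 and 31, and 12 and 28. Without the block, no bin was called by edgeR once any 1 of the 6 libraries was left out, T48 replicate 1 included, nor when only pairs of at least 20 kb were summed.

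The 7 hubs higher at 48 h than at 0 h had levels near 1 in the 4 earlier libraries and of 2.49 to 3.55 in both T48 libraries. Counts given here are over always-listed pairs of up to 20 kb. The test and its log2 changes used always-listed pairs of all distances. Each SE was derived from the test, as the size of the log2 change divided by the square root of its F statistic. The bin chr1:170765001-170770000 rose most, with counts of 206 and 129 at 0 h, 203 and 99 at 6 h, and 654 and 428 at 48 h. Its log2 change from T0 to T48 was 1.77 ± 0.102 (SE; edgeR adjusted p = 0.0319). The bin chr1:129245001-129250000 had counts of 272 and 161, 252 and 144, and 657 and 435, a log2 change of 1.43 ± 0.0936 (SE; edgeR adjusted p = 0.0319). The bin chr1:188405001-188410000 had 209 and 115, 192 and 108, and 470 and 330, a log2 change of 1.41 ± 0.0904 (SE; edgeR adjusted p = 0.0319). The other four, at chr1:170970001-170975000, chr1:196045001-196050000, chr1:196510001-196515000 and chr1:196520001-196525000, changed by 1.61, 1.49, 1.63 and 1.72 on the log2 scale. In all 7 the T48 levels were apart from the earlier ones, which the test that picked them favours.

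The 4 hubs lower at 48 h than at 0 h had levels of 2.71 to 4.56 in the earlier libraries and of 0.905 to 1.14 at 48 h. The adjacent bins chr1:122535001-122540000 and chr1:122540001-122545000 changed by -1.92 and -1.71 on the log2 scale. The bin chr1:122160001-122165000 changed by -1.47 and chr1:54500001-54505000 by -1.64. In these bins replicate 1 and replicate 2 at 48 h differed by little, unlike in the 151 bins low in T48 replicate 1 alone. The test favours bins whose libraries agree, so this closeness follows in part from how the bins were picked.

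**Figure D5:**
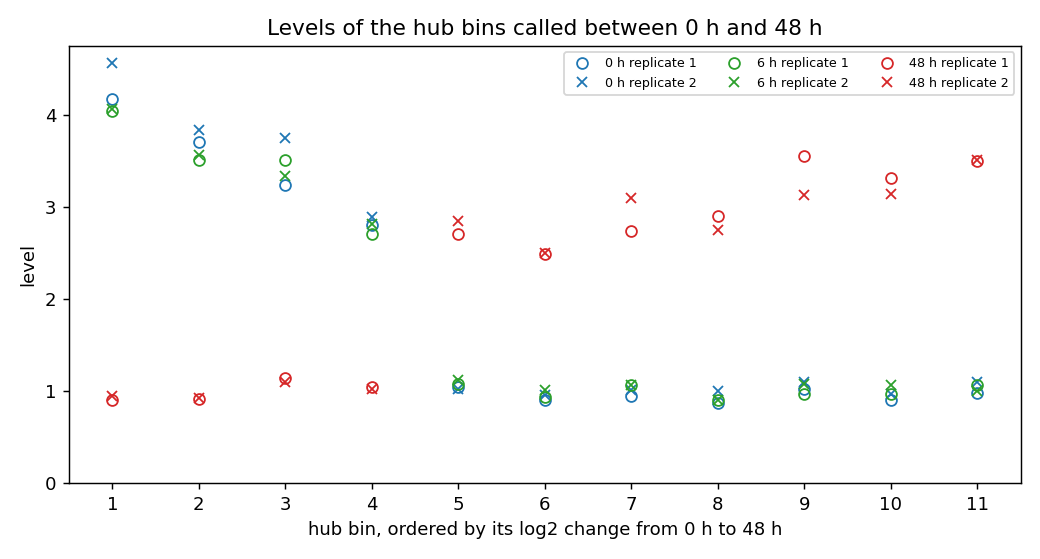
Count level (vertical axis) in the 6 libraries of the 11 hub bins called between 0 h and 48 h, ordered by their log2 change (horizontal axis), with circles for replicate 1 and crosses for replicate 2. The first 4 bins lie between 0.905 and 1.14 at 48 h and the other 7 between 2.49 and 3.55.

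One bin was lower at 6 h alone. The bin chr1:179600001-179605000 had 119 listed pairs at 0 h, 22 at 6 h and 131 at 48 h. Its counts over pairs of up to 20 kb were 308 and 160 at 0 h, 122 and 62 at 6 h, and 394 and 253 at 48 h. Its levels were 2.35 and 2.19, 1.03 and 1.00, and 3.40 and 3.33, so both T6 libraries were apart from the other 4. From T6 to T48 its tested count, over pairs of all distances, rose by 1.52 ± 0.106 (log2, SE; edgeR adjusted p = 0.0467). From T0 to T6 the log2 difference was -1.14 ± 0.106 (SE; edgeR adjusted p = 0.208), which did not pass.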

How the data were processed

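The file holds 1 table of chromatin contacts with, per the file headers, a count for each of 6 Hi-C libraries. The counts are deposited as read counts per pair of 5 kb bins. CASAVA 1.8.2, Bowtie2 and build mm9 are named per the submitters' processing notes. The contact caller, its threshold and any correction for coverage are not given in the sources used here. Members, lists and level limits were chosen with earlier results of these data known.

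Hubs, levels, spans and gaps were computed with Python 3.11.15 and pandas 2.3.3. Counts of pairs listed at all 3 times were summed per bin and tested with edgeR 4.0.16 (TMM, filterByExpr, all 6 libraries in 1 fit, adjusted p under 0.05), which was tested on simulated data. The simulated libraries varied independently with the same spread in all bins, so shared deviations of same-numbered libraries were not covered. DESeq2 1.42.0 was an alternative. Named bins are those with most pairs, the largest gains and losses by the scaled ratio of pair numbers, and those passing the test. No gene names are given, since no mm9 annotation was used here. Depth limits far pairs, whose lowest listed count was 3.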

Additional observations from a re-analysis of the deposited data

Results flagged for a closer look

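The change from T0 differed between 6 h and 48 h in 10 hub bins, by edgeR's test of T48 against T6 (7 higher and 3 lower at 48 h, adjusted p under 0.05). Of all 310746 tested bins, 13 were called (0.00418%). The hubs were selected on listings of the same libraries, so nothing is read from how many were called. DESeq2 called 12 hubs higher and 31 lower, and edgeR with the replicate block 12 higher and 28 lower, so that the balance of directions turned. The largest called difference was -1.84 on the log2 scale, at chr1:122535001-122540000. Its counts over pairs of up to 20 kb, a part of those tested, were 477 and 252 at 6 h and 105 and 72 at 48 h. Without the block, no bin passed edgeR's test with any 1 library left out.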

How the results depend on the processing

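At least 40 or 60 pairs in place of 50 gave 507 or 379 hubs, and pairs of at least 20 kb gave 406. A stricter list, of counts at least 1.5 times the lowest at that distance, gave 106. The share of counts in hub pairs was 20.5% at 0 h and 22.3% at 6 h with 40 pairs, 17.1% and 18.3% with 60, and 31.3%, 34.0% and 30.1% at T0, T6 and T48 with pairs of at least 20 kb. For T6 over T0, T48 over T0 and T48 over T6, DESeq2 called 41, 190 and 149 bins, of which 15, 41 and 43 were hubs. With the replicate block, edgeR called 34, 154 and 133, of which 14, 39 and 40 were hubs. Same-numbered libraries deviated together (correlations 0.560, 0.474 and 0.468), but the labels give only a number. Calls of bins and of hubs ranged from 0 to 0 over the fits without 1 library, and were 0 with pairs of at least 20 kb. The smallest adjusted p for T48 over T0 was 0.0858 without T48 replicate 1. Other scaling or filtering left all counts within 1.5 times. The 151 bins low in T48 replicate 1 and high in replicate 2 were 150 with the limits of 1.25 and 1.75 that were used first and then rounded, 152 with high from 1.5 and 148 from 2.0. They were 97 with levels from pairs of 25 to 100 kb, which fewer bins have. These alternatives on levels were chosen after seeing the data. The cause of the other moves was not tested.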
